A study of Mus musculus with 15 samples.

Results

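The Eph receptors and their ligands, the ephrins, are represented here by 10 genes of the 78298 in the deposited counts: the receptors Ephb2, Ephb3, Ephb4, Epha1, Epha2 and Epha4 and the ligands Efnb1, Efnb2, Efna1 and Efna5. They were chosen by gene symbol, with earlier results of these data known. All 10 were found and passed the filter on low counts, which 17560 genes passed. Efna5 passed it only through the libraries of the spheroid conditions described below. Poly-A RNA was sequenced from organoids grown from the small intestine of wild-type female mice on the C57BL/6J background, aged 8 to 16 weeks, in 5 conditions with 3 libraries each. Every line carried a lentiviral transgene under the L30 promoter, a weak promoter active in all cell types, and was selected with an antibiotic. The control Halo-NLS carried the HaloTag with a nuclear localization signal (L30prom_V5-Halo-GDGAGLIN-NLS_IRES_Puro). SOX9-mEGFP_budding (L30prom_Sox9-GDGAGLIN-mEGFP-V5_IRES_Puro) and SOX9-Halo_budding (L30prom_Sox9-GDGAGLIN-Halo-V5_IRES_Puro) overexpressed the transcription factor SOX9 with a fluorescent protein or the HaloTag attached, and still grew as budding organoids. SOX9-mEGFP_spheroid and SOX9-Halo_spheroid were the same 2 lines at later passages, when they grew as round spheroids. By then they also carried a histone marker from a second transduction (L30prom_H2B-GDGAGLIN-mScarletI-V5_IRES_Neo in SOX9-mEGFP_spheroid, L30prom_H2B-GDGAGLIN-mEGFP-V5_IRES_Zeo in SOX9-Halo_spheroid). Spheroid growth, later passage and the second transgene therefore cannot be told apart, and there was 1 line per construct, not stated to be a single clone. The paper orders SOX9-mEGFP_spheroid before SOX9-Halo_spheroid by time in culture and progress of spheroid growth. Differences between these 2 conditions thus mix line, stage and histone marker. Each library was pooled from 6 wells 5 days after seeding. The replicates were separate harvests of one line, so p-values measure only the spread between such harvests.

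Eph receptors are receptor tyrosine kinases that are switched on by ephrins on the surface of a neighbouring cell, and the ephrin-bearing cell can respond as well. EphA receptors mostly bind the lipid-anchored ephrin-A ligands and EphB receptors the transmembrane ephrin-B ligands, while EphA4 binds members of both classes. In the intestinal epithelium EphB2 and EphB3 are Wnt-responsive receptors that are high in the crypt, ephrin-B1 and ephrin-B2 increase towards the villus, and contact between them keeps the cell layers sorted.

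Against Halo-NLS, the receptors Epha2 and Epha4 and the ligand Efna5 were upregulated in both spheroid conditions, and Epha1 was downregulated in both. Efnb1, Efnb2 and Efna1 were downregulated against Halo-NLS in SOX9-Halo_spheroid, where the fall from the budding stage passed the test for Efnb1 and Efnb2. Of the comparisons of budding organoids with Halo-NLS, only that of Epha4 in SOX9-mEGFP_budding passed the test.

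Between 28062722 and 40559766 reads per library fell on genes (median 33491297). Halo-NLS replicate 3 stood apart, with 40375 genes holding a count against 24214 to 34646 in the other libraries. It was the only Halo-NLS library with Efna5 reads and had the lowest Efnb2 count of the 3. Leaving it out changed no count of called members in the 4 comparisons with Halo-NLS except for those called lower in SOX9-mEGFP_spheroid, which went from 2 to 1. Sox9 itself was higher in each of the 12 SOX9 libraries (1336 to 23654 normalized counts) than in any Halo-NLS library (305 to 769). The lowest of the 12 was SOX9-Halo_budding replicate 1 at 1336, and without it Ephb3 was no longer called between the SOX9-Halo conditions. The epithelial markers Epcam, Cdh1, Krt8, Krt18, Krt19, Vil1 and Cdx2 had counts in all 5 conditions. Against Halo-NLS, Cdx2, an intestinal transcription factor, was called lower in both spheroid conditions (means of 14708 normalized counts in Halo-NLS, 2576 in SOX9-mEGFP_spheroid and 90.4 in SOX9-Halo_spheroid), while Vil1 (47366 to 3955) and Epcam (33336 to 15463) were called lower in SOX9-Halo_spheroid. Krt18 was called higher in both (17451 in Halo-NLS, 66480 in SOX9-mEGFP_spheroid and 52269 in SOX9-Halo_spheroid).

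The promoters of the 3 genes called higher in both spheroid conditions and of the 2 ephrin-B genes called lower in SOX9-Halo_spheroid than in SOX9-mEGFP_spheroid are shown because these genes carry the main differences. Each line gives the 250 bases just upstream of the start of transcription, 5′ to 3′ on the strand of the gene, from the RefSeq table for build GRCm38.p6, with CpG dinucleotides in capitals. The windows are chr4:141300971-141301220 on the plus strand for Epha2, chr1:77515089-77515338 on the minus strand for Epha4 and chr17:62881318-62881567 on the minus strand for Efna5. For Efnb1 the window is chrX:99135811-99136060 on the plus strand, and for Efnb2 it is chr8:8661243-8661492 on the minus strand.
Epha2: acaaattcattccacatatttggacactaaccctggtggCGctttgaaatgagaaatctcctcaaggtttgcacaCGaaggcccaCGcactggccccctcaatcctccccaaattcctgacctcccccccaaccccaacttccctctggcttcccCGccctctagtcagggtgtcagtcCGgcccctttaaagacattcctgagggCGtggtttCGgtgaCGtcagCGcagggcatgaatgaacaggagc
Epha4: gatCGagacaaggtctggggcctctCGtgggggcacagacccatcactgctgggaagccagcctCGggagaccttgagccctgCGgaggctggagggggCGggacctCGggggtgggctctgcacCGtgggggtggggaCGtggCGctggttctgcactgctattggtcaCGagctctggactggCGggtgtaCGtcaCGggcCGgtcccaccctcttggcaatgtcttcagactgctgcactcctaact
Efna5: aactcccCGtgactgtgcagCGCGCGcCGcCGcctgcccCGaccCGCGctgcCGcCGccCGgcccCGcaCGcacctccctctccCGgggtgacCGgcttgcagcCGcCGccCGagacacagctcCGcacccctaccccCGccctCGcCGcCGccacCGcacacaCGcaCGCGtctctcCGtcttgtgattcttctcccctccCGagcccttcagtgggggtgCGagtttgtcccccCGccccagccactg
Efnb1: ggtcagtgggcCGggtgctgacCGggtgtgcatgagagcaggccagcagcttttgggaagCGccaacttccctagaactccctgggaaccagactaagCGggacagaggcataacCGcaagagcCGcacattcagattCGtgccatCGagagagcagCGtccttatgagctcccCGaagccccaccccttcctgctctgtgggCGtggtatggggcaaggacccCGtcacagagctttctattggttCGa
Efnb2: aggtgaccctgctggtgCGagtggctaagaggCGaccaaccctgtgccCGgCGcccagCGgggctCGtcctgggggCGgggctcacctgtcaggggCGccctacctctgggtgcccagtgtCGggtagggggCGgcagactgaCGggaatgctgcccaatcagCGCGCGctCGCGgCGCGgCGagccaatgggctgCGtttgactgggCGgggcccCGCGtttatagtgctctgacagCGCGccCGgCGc

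Over the 11 RefSeq starts of the 10 members (Efna1 has 2) there were 9 to 32 CpG dinucleotides per window, against a median of 6 over all 32851 starts in the table. Efna5 had 32, more than 95.4% of all starts, and Epha2 had 9. The GC content ran from 54.4% (Epha1) to 74.8% (Efna5), above the median of 52.4% over all starts. The letters ACAATG and ACAAAG, cores of the motif that SOX proteins bind, and CTTTGAT and CTTTGTT, cores of the TCF/LEF motif, were searched on both strands. The reverse complement of ACAAAG lies within CTTTGTT, so those overlap. None of the 4 was found in any of the 11 windows, while 27.5% of all starts hold at least 1 of them (25.2% a SOX core and 8.06% a TCF/LEF core). This says only that these letters are not in these windows.

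**Figure D1:**
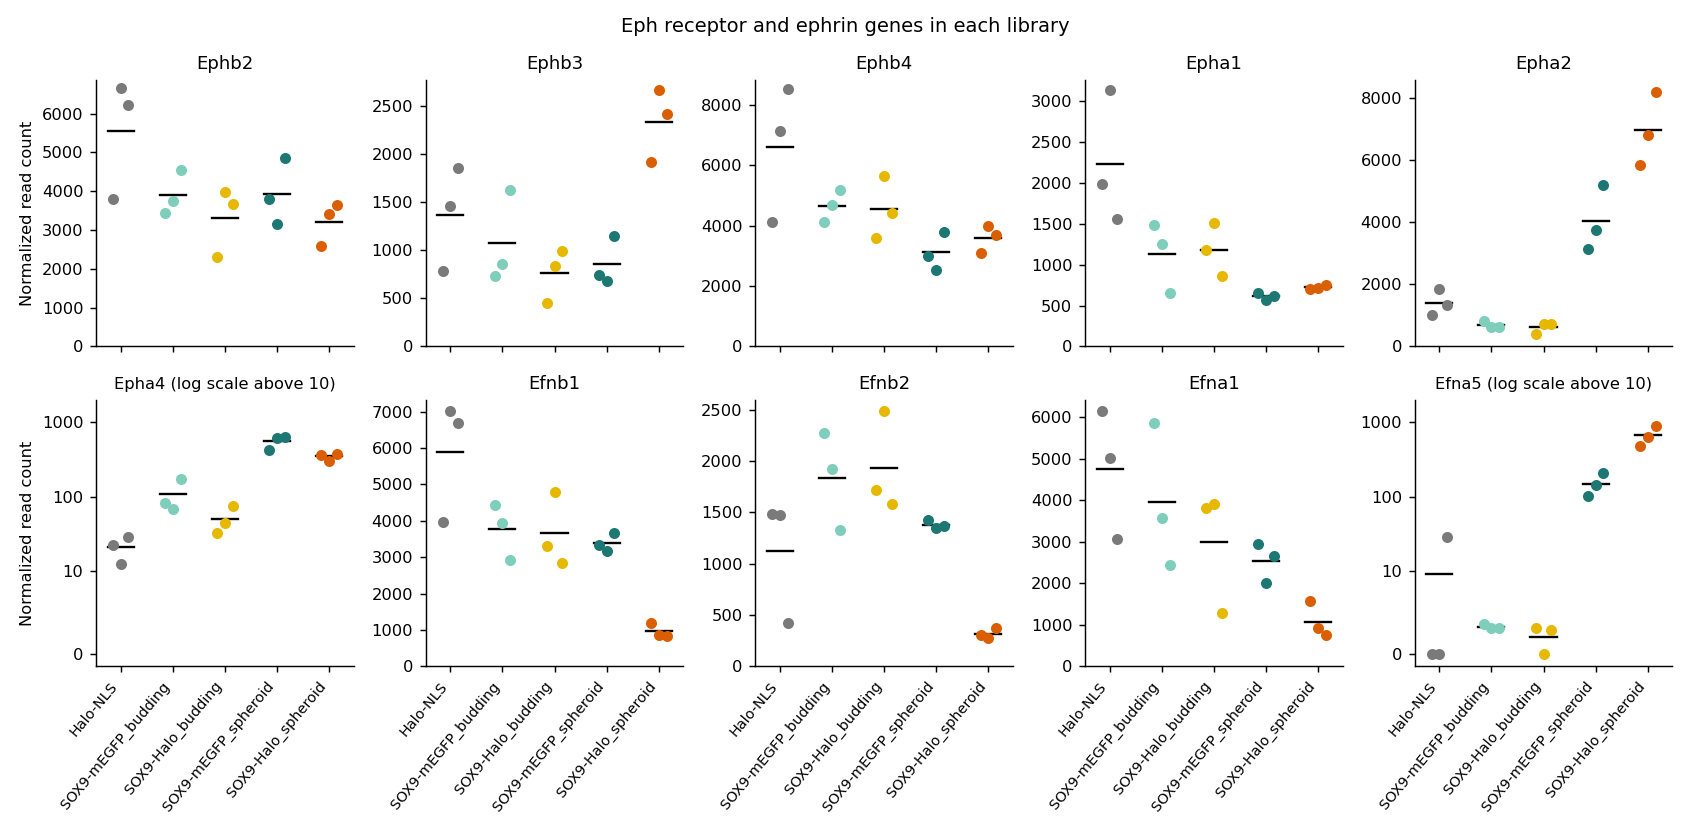
Normalized counts of the 10 members, 1 panel per gene, with 1 point per library, the black line at the mean of 3 libraries, and the axes of Epha4 and Efna5 logarithmic above 10. Epha2 lies between 5847 and 8187 in SOX9-Halo_spheroid against 1023 to 1844 in Halo-NLS, while Efnb1 lies between 842 and 1183 against 3965 to 7022.

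Values per library are normalized counts (reads scaled by library size and TMM factor, in units of the mean library), with replicates 1, 2 and 3 in that order and means ± SD over 3 libraries. A gene was called changed at an adjusted p of at most 0.01 (edgeR's quasi-likelihood test, Benjamini-Hochberg over 17560 genes), a change of at least 1 on the log2 scale and a mean of at least 10 normalized counts. Log2 fold changes are given ± standard error.

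The crypt receptor Ephb2 (ENSMUSG00000028664, chr4:136374850-136563351 on the minus strand of GRCm39, as are all gene positions given here) was not called in any comparison. It had 3803, 6656 and 6213 normalized counts in Halo-NLS, 3432, 3746 and 4552 in SOX9-mEGFP_budding, and 2297, 3983 and 3669 in SOX9-Halo_budding. It had 3789, 3154 and 4862 in SOX9-mEGFP_spheroid and 2586, 3414 and 3652 in SOX9-Halo_spheroid. In the order of the means, Halo-NLS came first, and every condition overlapped with its neighbour in that order. The change between budding and spheroid organoids was -0.04 ± 0.26 in the SOX9-Halo line (edgeR, adjusted p = 0.91) and 0.01 ± 0.26 in the SOX9-mEGFP line (edgeR, adjusted p = 0.99), and the sign of both depends on which library is left out. All SOX9-Halo_spheroid libraries lay below every Halo-NLS library. The log2 fold change between these conditions was -0.79 ± 0.26, short of the call (edgeR, adjusted p = 0.023). With 1 library left out it ran from -0.99 to -0.63 (edgeR, adjusted p between 0.005 and 0.097).

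Ephb3, the second crypt receptor (ENSMUSG00000005958, chr16:21023495-21042057, plus strand), was called higher from budding to spheroid in the SOX9-Halo line. The difference between the lines in this change was not called. Its normalized counts were 783, 1467 and 1857 in Halo-NLS, 735, 858 and 1631 in SOX9-mEGFP_budding and 742, 680 and 1148 in SOX9-mEGFP_spheroid. In the SOX9-Halo line they were 452, 833 and 997 when budding and 1919, 2665 and 2418 as spheroids. SOX9-Halo_spheroid was the highest condition and overlapped with none, while the other 4 overlapped with their neighbours. The rise within the SOX9-Halo line was 1.62 ± 0.38 on the log2 scale (edgeR, adjusted p = 0.0032). It was not called without SOX9-Halo_budding replicate 1 (1.35, edgeR adjusted p = 0.018) or without SOX9-Halo_spheroid replicate 2 (1.46, edgeR adjusted p = 0.016) or 3 (1.53, edgeR adjusted p = 0.013). With replicate numbers as a block it was 1.69 (edgeR, adjusted p = 7e-05). That block spanned all 15 libraries, also those of conditions not taken to pair, so it is not a paired fit of this line alone. The difference between the lines in this change, 1.95 ± 0.54, was not called (edgeR, adjusted p = 0.026), nor was the difference of 0.77 ± 0.38 from Halo-NLS (edgeR, adjusted p = 0.11).

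Ephb4 (ENSMUSG00000029710, chr5:137348274-137376931, plus strand), the receptor of ephrin-B2 best known from veins, was the most abundant receptor per length in the control. It had 4113, 7115 and 8523 normalized counts in Halo-NLS, 4108, 4682 and 5183 in SOX9-mEGFP_budding, and 3591, 5641 and 4400 in SOX9-Halo_budding. The spheroid values were 3006, 2542 and 3796 in the SOX9-mEGFP line and 3086, 3987 and 3695 in the SOX9-Halo line, all below every Halo-NLS library. Against Halo-NLS it fell in SOX9-mEGFP_spheroid (-1.08 ± 0.26, edgeR adjusted p = 0.0034), while the value in SOX9-Halo_spheroid was -0.88 ± 0.26 (edgeR, adjusted p = 0.012). The first call was lost without Halo-NLS replicate 2 (-1.01) or 3 (-0.85) and without SOX9-mEGFP_spheroid replicate 1 (-1.06) or 2 (-0.97), with adjusted p between 0.013 and 0.02 (edgeR). It was also lost with library sizes alone (-0.81) and in the fit of only the libraries compared (-1.12).

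Epha1 (ENSMUSG00000029859, chr6:42335406-42350208, minus strand), an epithelial EphA receptor, was lower in the spheroids. Its normalized counts were 1979, 3129 and 1560 in Halo-NLS, 1481, 1250 and 656 in SOX9-mEGFP_budding, and 1183, 1502 and 860 in SOX9-Halo_budding. In the spheroids they were 655, 567 and 615 (SOX9-mEGFP) and 699, 717 and 753 (SOX9-Halo). No library of the 4 SOX9 conditions reached the lowest Halo-NLS library. The fall against Halo-NLS was called in SOX9-mEGFP_spheroid (-1.86 ± 0.31, edgeR adjusted p = 0.00025) and SOX9-Halo_spheroid (-1.62 ± 0.31, edgeR adjusted p = 0.00057). The budding values were -0.98 ± 0.31 and -0.91 ± 0.31 in the SOX9-mEGFP and SOX9-Halo lines (edgeR, adjusted p = 0.046 and 0.05). Of the exon bases of Epha1, 36.9% are shared with Zyx on the opposite strand, and the counts do not use strand, so reads there could not be assigned. Zyx was not called in any comparison, and its log2 fold changes against Halo-NLS were -0.77 and 0.08 in SOX9-mEGFP_spheroid and SOX9-Halo_spheroid.

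Epha2 (ENSMUSG00000006445, chr4:141028540-141056695, plus strand), a receptor of ephrin-A1 in many epithelia, showed the widest span of the abundant receptors. It had 1023, 1844 and 1331 normalized counts in Halo-NLS, 827, 641 and 612 in SOX9-mEGFP_budding, and 417, 716 and 718 in SOX9-Halo_budding. In the spheroids it had 3120, 3760 and 5194 (SOX9-mEGFP) and 5847, 6814 and 8187 (SOX9-Halo). The budding organoids were thus the lowest, Halo-NLS lay between, and the spheroids were the highest, with overlap only between the 2 budding conditions. Against Halo-NLS it rose by 2.31 ± 0.29 on the log2 scale (4.96-fold) in SOX9-Halo_spheroid (edgeR, adjusted p = 9.7e-06) and by 1.52 ± 0.28 (2.88-fold) in SOX9-mEGFP_spheroid (edgeR, adjusted p = 0.00047). The budding conditions differed from Halo-NLS by -1.18 ± 0.28 (SOX9-Halo) and -1.01 ± 0.28 (SOX9-mEGFP), with adjusted p of 0.014 and 0.029 (edgeR), neither called. From budding to spheroid the rise was 3.49 ± 0.30 (11.3-fold, edgeR adjusted p = 2.8e-07) in the SOX9-Halo line and 2.54 ± 0.29 (5.81-fold, edgeR adjusted p = 1.1e-05) in the SOX9-mEGFP line. The difference between these 2 changes, 0.96 ± 0.39, was not called (edgeR, adjusted p = 0.14).

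Epha4 (ENSMUSG00000026235, chr1:77343822-77492816, minus strand), the receptor that binds ligands of both classes, was near the limit of detection in the control. It had 22.2, 12.6 and 28.9 normalized counts in Halo-NLS, 32.6, 44.8 and 74.1 in SOX9-Halo_budding, and 81.4, 67.5 and 174 in SOX9-mEGFP_budding. In SOX9-Halo_spheroid it had 361, 298 and 378, and in SOX9-mEGFP_spheroid 416, 606 and 630.5. Every SOX9 library lay above every Halo-NLS library, and SOX9-mEGFP_spheroid was the highest. Against Halo-NLS the log2 fold change was 4.69 ± 0.46 (edgeR, adjusted p = 1.5e-06) in SOX9-mEGFP_spheroid and 4.02 ± 0.45 (edgeR, adjusted p = 3.2e-06) in SOX9-Halo_spheroid. In SOX9-mEGFP_budding it was 2.35 ± 0.43 (edgeR, adjusted p = 0.0041), a call lost without Halo-NLS replicate 2 (2.09) or SOX9-mEGFP_budding replicate 3 (1.81) and in the fit of only the libraries compared (2.31, edgeR adjusted p = 0.047). The rise in SOX9-Halo_budding, 1.25 ± 0.43, was not called (edgeR, adjusted p = 0.055). Both lines rose from budding to spheroid, by 2.78 ± 0.41 (SOX9-Halo, edgeR adjusted p = 5.6e-05) and 2.34 ± 0.40 (SOX9-mEGFP, edgeR adjusted p = 0.00036).

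Efnb1 (ENSMUSG00000031217, chrX:98179680-98205454, plus strand), which encodes the transmembrane ligand ephrin-B1, had 3965, 7022 and 6691 normalized counts in Halo-NLS. It had 4436, 3931 and 2917 in SOX9-mEGFP_budding, 3307, 4799 and 2853 in SOX9-Halo_budding, and 3345, 3179 and 3653 in SOX9-mEGFP_spheroid. In SOX9-Halo_spheroid it had 1183, 869 and 842, below every other library, while the other 4 conditions each overlapped with their neighbour in the order of the means. The fall in SOX9-Halo_spheroid was -2.61 ± 0.27 on the log2 scale against Halo-NLS (6.11-fold lower, edgeR adjusted p = 1.7e-06) and -1.92 ± 0.27 against SOX9-Halo_budding (3.79-fold lower, edgeR adjusted p = 3.1e-05). Between the budding and spheroid stages of the SOX9-mEGFP line the value was -0.15 ± 0.26 (edgeR, adjusted p = 0.74). The difference between the lines was tested directly and was called, at -1.77 ± 0.36 (edgeR, adjusted p = 0.0039), but not without SOX9-Halo_spheroid replicate 2 (-1.72) or 3 (-1.71) or without SOX9-mEGFP_budding replicate 3 (-1.55).

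Efnb2 (ENSMUSG00000001300, chr8:8667226-8711249, minus strand), which encodes ephrin-B2, had 1483, 1476 and 424 normalized counts in Halo-NLS. It had 2272, 1917 and 1328 in SOX9-mEGFP_budding, 1714, 2487 and 1583 in SOX9-Halo_budding, and 1429, 1345 and 1367 in SOX9-mEGFP_spheroid. The values of 301, 276 and 372 in SOX9-Halo_spheroid were again the lowest, although Halo-NLS replicate 3 came close. SOX9-Halo_spheroid was lower than Halo-NLS by a log2 fold change of -1.83 ± 0.38 (edgeR, adjusted p = 0.00095), than SOX9-Halo_budding by -2.61 ± 0.39 (edgeR, adjusted p = 6e-05) and than SOX9-mEGFP_spheroid by -2.12 ± 0.38 (edgeR, adjusted p = 0.00068). The difference between the lines in the budding-to-spheroid change was -2.19 ± 0.52, with an adjusted p just above the limit of 0.01 (edgeR), so it was not called. Genes on the opposite strand share 10.3% of the exon bases of Efnb2.

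Efna1 (ENSMUSG00000027954, chr3:89179037-89188449, minus strand), the gene of the lipid-anchored ligand ephrin-A1, was lowest in replicate 3 in 4 of the 5 conditions. It had 6157, 5019 and 3075 normalized counts in Halo-NLS, 5864, 3581 and 2451 in SOX9-mEGFP_budding, and 3825, 3920 and 1275 in SOX9-Halo_budding. In the spheroids it had 2956, 2002 and 2669 (SOX9-mEGFP) and 1564, 915 and 745 (SOX9-Halo). SOX9-Halo_spheroid was the lowest condition but overlapped with SOX9-Halo_budding, whose replicate 3 was low. Against Halo-NLS it fell by 2.15 on the log2 scale (SE 0.44, edgeR adjusted p = 0.00097). Against SOX9-Halo_budding the log2 fold change was -1.49 ± 0.43, not called (edgeR, adjusted p = 0.012). The fit with the replicate block over all 15 libraries called it (-1.45, edgeR adjusted p = 0.0012). In SOX9-mEGFP_spheroid the log2 fold change against Halo-NLS was -0.90 ± 0.43 (edgeR, adjusted p = 0.091).

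Efna5 (ENSMUSG00000048915, chr17:62909956-63188312, minus strand), the gene of ephrin-A5, was close to absent outside the spheroids. Reads on it numbered 0, 0 and 23 in Halo-NLS, 3, 3 and 4 in SOX9-mEGFP_budding and 4, 0 and 3 in SOX9-Halo_budding. In the spheroids the normalized counts were 102, 142 and 205 (SOX9-mEGFP) and 480, 627 and 875 (SOX9-Halo), with no overlap between the 2 spheroid conditions or with any other condition. The rise against Halo-NLS was called in SOX9-Halo_spheroid (6.09 ± 0.90 on the log2 scale, edgeR adjusted p = 5.6e-05) and SOX9-mEGFP_spheroid (3.95 ± 0.86, edgeR adjusted p = 0.0017). So was the rise from the budding stage, with fitted values of 8.22 ± 1.04 and 5.46 ± 0.96 that rest on 0 to 4 reads per budding library. The size of the change against Halo-NLS depends on replicate 3, without which the fitted values are 12.4 and 10.2. The call in SOX9-mEGFP_spheroid against Halo-NLS was lost in the fit of only the libraries compared (3.92, edgeR adjusted p = 0.018).

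**Figure D2:**
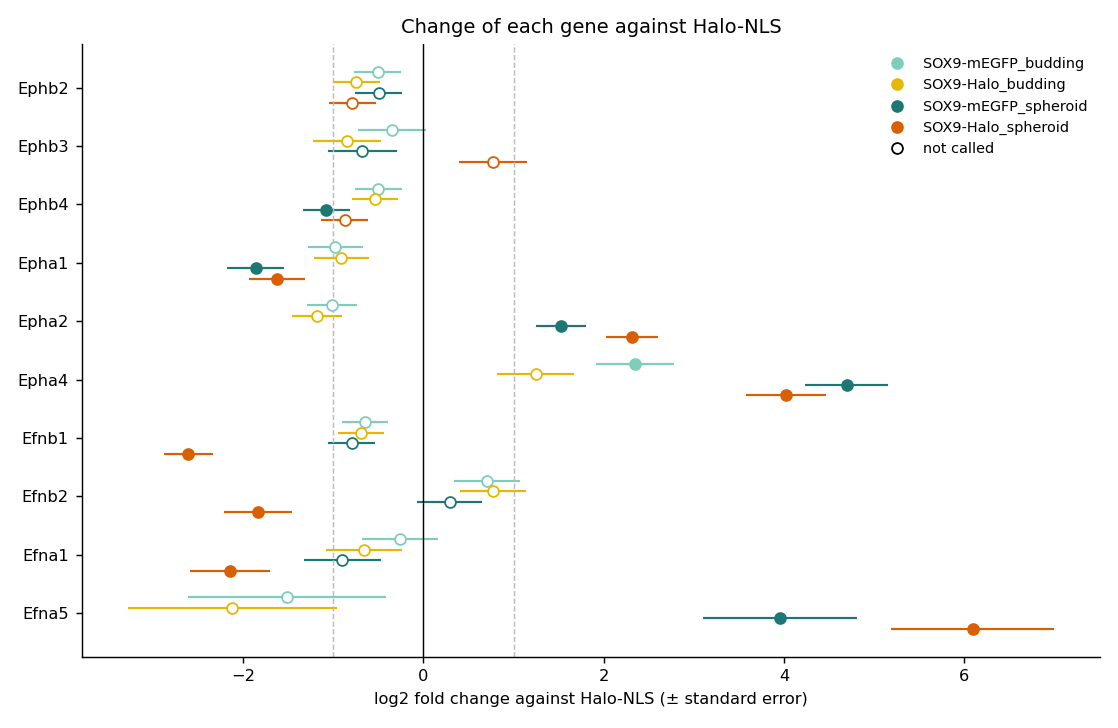
Log2 fold change of each member against Halo-NLS in the 4 SOX9 conditions, with standard errors as bars, filled symbols for called changes, open symbols for the others, and dashed lines at a log2 change of 1 in either direction. Epha2 is below 0 in both budding conditions (-1.18 and -1.01) and above 0 in both spheroid conditions (2.31 and 1.52), and Epha4 is above 0 in all 4.

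Counted over the members, SOX9-Halo_spheroid against Halo-NLS had 3 called higher (Epha2, Epha4, Efna5) and 4 called lower (Efnb1, Efnb2, Epha1, Efna1) of 10, where 13.6% of all genes tested were called higher and 15.3% lower. The median log2 fold change of the members was -0.83, against -0.01 over all genes. In SOX9-mEGFP_spheroid against Halo-NLS, 3 were called higher (Epha2, Epha4, Efna5) and 2 lower (Ephb4, Epha1), with 15.3% of all genes higher and 12.1% lower, and medians of -0.59 and 0.03. These comparisons share the Halo-NLS libraries and are set side by side only. Efna5 passed the filter on low counts only through the spheroid libraries, which limits its place in these counts and those from budding to spheroid. The members were chosen with earlier results of these data known, so the counts and medians are descriptions.

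In SOX9-Halo_budding against Halo-NLS, 0 members were called in either direction by edgeR, beside 2.49% of all genes higher and 1.26% lower. By DESeq2 there were 0 higher and 1 lower, and at an unadjusted p under 0.05 edgeR gave 1 higher and 5 lower, beside 20.5% and 17% of all genes at that limit. Epha2 came closest. In SOX9-mEGFP_budding against Halo-NLS, 1 was called higher (Epha4) and 0 lower by edgeR, beside 1.99% and 0.763% of all genes. By DESeq2 1 was called lower, and 3 were lower at an unadjusted p under 0.05, beside 15.4% of all genes. Medians over the members were -0.72 and -0.50 in the SOX9-Halo and SOX9-mEGFP budding conditions, against 0.01 and 0.03 over all genes.

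From budding to spheroid within the SOX9-Halo line, 4 members were called higher (Ephb3, Epha2, Epha4, Efna5) and 2 lower (Efnb1, Efnb2), beside 10.5% and 14.7% of all genes. Within the SOX9-mEGFP line 3 were called higher (Epha2, Epha4, Efna5) and 0 lower, beside 8.55% and 7.88% of all genes. At an unadjusted p under 0.05, 2 were lower there by edgeR, beside 18.4% of all genes, and DESeq2 called 0 lower. No member was called between the 2 budding conditions (0 in either direction by edgeR and by DESeq2), beside 0.29% of all genes higher and 0.165% lower in SOX9-Halo_budding. At an unadjusted p under 0.05 there were 0 higher and 1 lower by edgeR, beside 3.3% and 5.07% of all genes. The members' log2 fold changes there ran from -1.10 (Epha4) to 0.07 (Efnb2).

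Between the spheroids, Efnb1 and Efnb2 were called lower in SOX9-Halo_spheroid than in SOX9-mEGFP_spheroid and 0 members higher, beside 9.58% of all genes lower and 3.59% higher. The values for Ephb3 (1.45 ± 0.38), Efna5 (2.14 ± 0.71), Epha2 (0.79 ± 0.27) and Efna1 (-1.24 ± 0.43) were not called (edgeR, adjusted p between 0.012 and 0.049). At an unadjusted p under 0.05 edgeR gave 3 members higher, beside 13.4% of all genes, and DESeq2 called 1. The test of the line difference called Efnb1 lower and 0 members higher, beside 5.58% and 1.81% of all genes. DESeq2 called 1 higher and 2 lower, and 2 were higher by edgeR at an unadjusted p under 0.05, beside 8.25% of all genes.

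**Figure D3:**
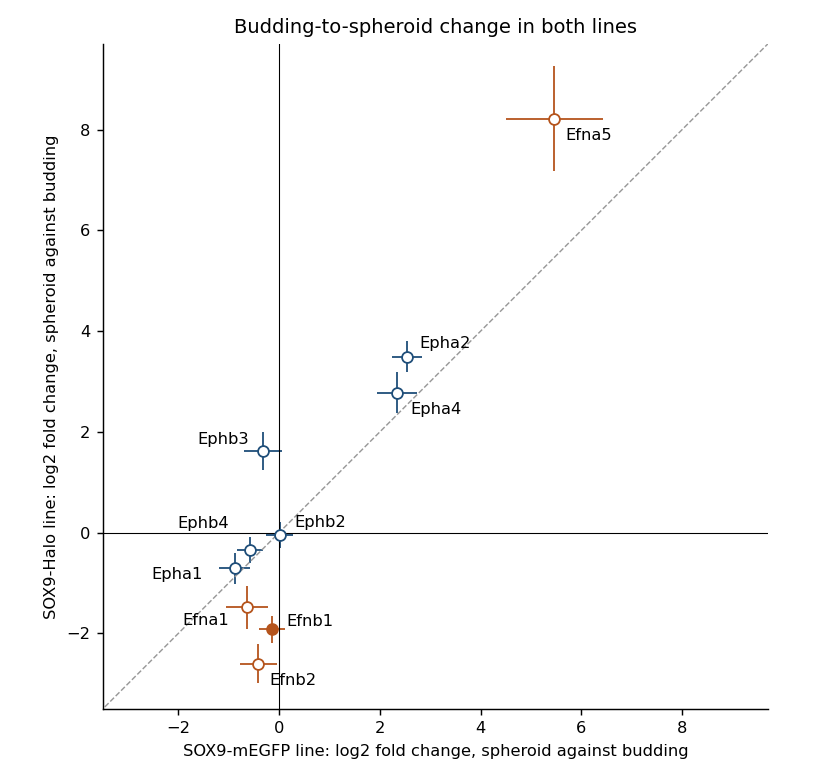
Log2 fold change from budding to spheroid of each member in the SOX9-mEGFP line (x) and the SOX9-Halo line (y) with standard errors, receptors in blue, ephrins in orange, the dashed line marking equal change, and a filled symbol for a called difference between the lines. Efnb1 lies at -0.15 and -1.92 and is the filled symbol, while Epha4 lies near the dashed line at 2.34 and 2.78.

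To set genes side by side, levels were expressed per length as TPM (reads per base of exon scaled to a fixed total per library, computed here from the counts and exon lengths). TPM do not use the TMM factors and are scaled to a total of reads per base, not of reads. Totals are therefore not on the scale of the fold changes above. From Halo-NLS to SOX9-Halo_spheroid, mean Ephb4 went from 114 to 88.8 TPM but from 6583 to 3589 normalized counts. Shares within a library do not depend on these scalings. The receptor total over the whole family was 247 ± 71.4 TPM in Halo-NLS and 380 ± 75.0 in SOX9-Halo_spheroid, and the 2 ranges overlapped between 298 and 311. Ephb4 was the largest part of it in Halo-NLS (46.0% ± 6.86, SD, n = 3), SOX9-mEGFP_budding (50.1% ± 3.25) and SOX9-Halo_budding (52.4% ± 0.96). In SOX9-mEGFP_spheroid Ephb4 held 28.9% ± 2.37 and Epha2 39.7% ± 4.09, and in SOX9-Halo_spheroid 23.5% ± 1.74 and 48.5% ± 2.74. Epha2 held 10.6% ± 1.43 in Halo-NLS, so that the leading receptor of the mixture was of class B in the control and budding organoids and of class A in the spheroids. The EphA class as a whole went from 31.6% ± 8.40 in Halo-NLS to 50.5% ± 3.85 and 56.1% ± 2.82 in SOX9-mEGFP_spheroid and SOX9-Halo_spheroid, with no overlap. Epha1 was divided by its full exon length, of which 36.9% is shared with Zyx and yields no assigned reads. Its TPM, 49.9 on average in Halo-NLS, is therefore likely too low, which lowers the EphA share most where Epha1 is high. Epha4, for all its fold change, made up 3.14% and 1.40% of the receptor total in the 2 spheroid conditions.

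The ephrin total was 311 TPM in Halo-NLS, 330 in SOX9-mEGFP_budding, 295 in SOX9-Halo_budding, 260 in SOX9-mEGFP_spheroid and 140 in SOX9-Halo_spheroid. These totals are not on the scale of the fold changes either. Mean Efnb1 was 130, 102 and 105 TPM in Halo-NLS, SOX9-mEGFP_budding and SOX9-Halo_budding, but 5893, 3762 and 3653 normalized counts. Efnb1 (41.9% ± 12.0) and Efna1 (38.9% ± 12.2) shared most of the ephrin total in Halo-NLS. In SOX9-Halo_spheroid the class B ephrins held 26.8% ± 1.16, against 46.5% ± 10.3 in Halo-NLS and 48.8% ± 2.60 in SOX9-mEGFP_spheroid, and the ranges did not overlap. Efna4, a further ephrin-A gene, held 27.3% ± 3.15 there and 9.07% ± 1.68 in Halo-NLS. Its normalized counts, 504 and 523 on average, were not called different (log2 fold change -0.05 ± 0.20, edgeR adjusted p = 0.84). Efna5 reached 11.5% ± 4.82 in SOX9-Halo_spheroid and 1.32% ± 0.44 in SOX9-mEGFP_spheroid.

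**Figure D4:**
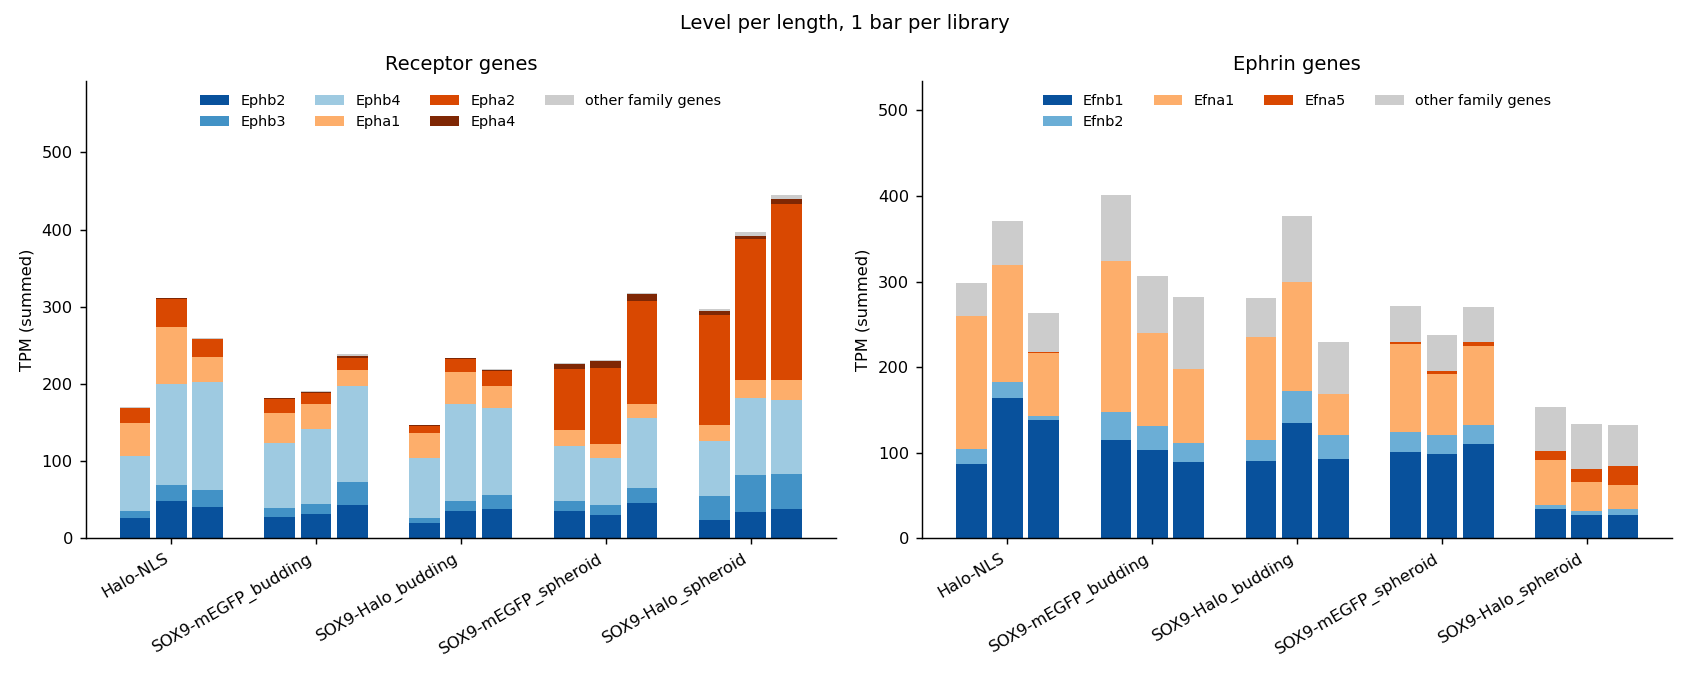
TPM of receptors (left) and ephrins (right) stacked in 1 bar per library, with the remaining family genes in grey. In the receptor bars Epha2 grows from 9.03% to 11.8% of the total in Halo-NLS to 46.0% to 51.4% in SOX9-Halo_spheroid, and the ephrin bars of SOX9-Halo_spheroid are the lowest.

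The rest of the family comprised 12 genes, of which 6 (Epha7, Ephb6, Efna2, Efna3, Efna4 and Efnb3) passed the filter on low counts. Ephb6, a receptor whose kinase domain lacks activity, was, like Efna5, highest in SOX9-Halo_spheroid. It had 0 to 5 reads per library outside the spheroids, 77.2, 69.1 and 86.7 normalized counts in SOX9-mEGFP_spheroid and 163, 284 and 273 in SOX9-Halo_spheroid. Ephb6 thus passed the filter only through the spheroid libraries. It was called higher in both spheroid conditions against Halo-NLS (edgeR, adjusted p = 1.8e-06 for SOX9-Halo and 4.5e-05 for SOX9-mEGFP) and against the budding stage of each line (edgeR, adjusted p = 1.3e-06 and 6.9e-05). The ligand gene Efna2 went the other way, from 108, 99.8 and 64.1 normalized counts in Halo-NLS to 6.21, 19.0 and 24.8 in SOX9-mEGFP_spheroid and 20.1, 8.51 and 9.90 in SOX9-Halo_spheroid. Its fall against Halo-NLS was called in both (-2.45 ± 0.44 and -2.84 ± 0.46, edgeR adjusted p = 0.00041 and 0.00012). No gene of these 6 was called in the comparisons of the budding conditions with Halo-NLS, between the lines or of the line difference.

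Among 38 genes that act with Eph receptors or ephrins (the protease Adam10, kinases, adaptors, phosphatases, PDZ proteins and regulators of small GTPases), all of which were tested, 13.2% were called higher (5 genes) and 15.8% lower (6 genes) in SOX9-Halo_spheroid against Halo-NLS, near the shares over all genes given above. In SOX9-mEGFP_spheroid it was 18.4% (7 genes) and 7.89% (3 genes), against 15.3% and 12.1% of all genes. The budding conditions had 5.26% higher (2 genes) and 0 lower each, where 2.49% (SOX9-Halo) and 1.99% (SOX9-mEGFP) of all genes were higher. From budding to spheroid the SOX9-Halo line had 10.5% higher (4 genes) and 13.2% lower (5 genes), against 10.5% and 14.7% of all genes, and the SOX9-mEGFP line 2.63% (1 gene) and 5.26% (2 genes), against 8.55% and 7.88%. Between the 2 budding conditions there were 0. Between the spheroids 0 were higher and 7.89% lower (3 genes) in SOX9-Halo_spheroid, and in the line difference 0 were higher and 2.63% lower (1 gene), where 9.58% and 5.58% of all genes were lower. The 3 most abundant, the phosphatase Ptprf and the GTPases Cdc42 and Rhoa (means of 13322, 11731 and 11030 normalized counts), were not called in any comparison. For Cdc42 the log2 fold changes against Halo-NLS lay between -0.03 and 0.07.

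The called partner genes with the largest changes in the spheroids were Fyn, Kalrn, Arhgap31 and Vav3. Fyn, a Src-family kinase that acts downstream of both receptors and ephrins, fell from a mean of 385 normalized counts in Halo-NLS to 51.8 in SOX9-mEGFP_spheroid and 6.33 in SOX9-Halo_spheroid (log2 fold changes -2.88 ± 0.46 and -5.85 ± 0.57, edgeR adjusted p = 0.00016 and 8.2e-07). Kalrn, an exchange factor for small GTPases used by EphB2, fell from 682 to 80.3 and 21.3 (edgeR, adjusted p = 0.00029 and 6.5e-06). Arhgap31, which inactivates Rac and Cdc42, rose from 78.1 to 390 and 523 (2.32 ± 0.44 and 2.74 ± 0.45, edgeR adjusted p = 0.00062 and 0.00013), and was also called in SOX9-mEGFP_budding (2.46 ± 0.44, edgeR adjusted p = 0.0036). Vav3, an exchange factor recruited by activated Eph receptors, was called lower in SOX9-Halo_spheroid than in SOX9-mEGFP_spheroid (-4.88 ± 0.41, edgeR adjusted p = 6e-07). Between the 2 budding conditions it was not called (-0.83 ± 0.32, edgeR adjusted p = 0.41). Against Halo-NLS, Vav3 was called higher in SOX9-mEGFP_budding (3.99), SOX9-Halo_budding (3.16) and SOX9-mEGFP_spheroid (3.04), and lower in SOX9-Halo_spheroid (-1.85). It had a mean of 37.0 normalized counts in Halo-NLS, 587 in SOX9-mEGFP_budding, 330 in SOX9-Halo_budding, 303 in SOX9-mEGFP_spheroid and 10.3 in SOX9-Halo_spheroid. The line difference in its budding-to-spheroid change was -4.06 ± 0.51 (edgeR, adjusted p = 6.3e-05), of the same sign as that of Efnb1.

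Since EphB receptors are usually read beside other Wnt-responsive crypt genes, 10 of these (Lgr5, Ascl2, Axin2, Rnf43, Znrf3, Sox4, Cd44, Myc, Nkd1 and Tnfrsf19) were counted. In SOX9-Halo_spheroid against Halo-NLS 5 were called higher and 0 lower (median log2 fold change 1.10), beside 13.6% and 15.3% of all genes, and in SOX9-mEGFP_spheroid 4 and 0 (median 1.17), beside 15.3% and 12.1%. The budding conditions had 2 higher (SOX9-Halo, median -0.13) and 1 higher (SOX9-mEGFP, median 0.91) and 0 lower, where 2.49% and 1.99% of all genes were higher. From budding to spheroid, the SOX9-Halo line had 4 of them higher and 2 lower (median 1.11), beside 10.5% and 14.7% of all genes, and the SOX9-mEGFP line 1 and 0 (median 0.51), beside 8.55% and 7.88%. The medians over all genes lay between -0.08 and 0.03. Over the same comparisons Ephb2 was called in none and Ephb3 in 1, the rise within the SOX9-Halo line.

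For 5 members, the genes most like them across the 15 libraries were taken by the root mean square difference of centred log2 CPM (counts scaled to a fixed library total) over 15718 genes. For Epha2 they were Pcsk6 (0.259), Tspan4 (0.330) and Slc7a5 (0.338), where the spread of Epha2 around its own mean was 1.42. Efnb2 was followed by Map3k13 (0.181), Fchsd2 (0.273) and Plekha5 (0.300), with a spread of 1.04 for Efnb2 itself. For Ephb3 they were Cdt1 (0.210), Slc29a2 (0.267) and Mms19 (0.277), beside its own spread of 0.727, and for Ephb2 Dpp9 (0.184), Med24 (0.186) and Zfp598 (0.191), beside 0.392. Efna1 had Ifngr2 (0.352), Tmem237 (0.357) and Pxmp4 (0.368), beside 0.896. These are descriptions over libraries that share conditions.

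Many markers of differentiated cell types were also lower in the spheroids. In SOX9-Halo_spheroid against Halo-NLS, 4 of 4 enterocyte, 5 of 5 goblet, 5 of 5 Paneth and 4 of 4 enteroendocrine markers were called lower. In SOX9-mEGFP_spheroid, where Efnb1, Efnb2 and Efna1 were not called, it was 4 of 4 enterocyte, 0 of 5 goblet, 4 of 5 Paneth and 4 of 4 enteroendocrine markers, with 1 Paneth marker called higher. The summed normalized counts of 4 enterocyte markers (Alpi, Fabp1, Sis and Apoa1) were 133735 to 282744 in Halo-NLS, 4397 to 12477 in SOX9-mEGFP_spheroid and 51.1 to 162 in SOX9-Halo_spheroid, with none at 0. Those of 5 goblet markers (Muc2, Tff3, Fcgbp, Clca1 and Spdef) were 68842 to 265613, 64286 to 112692 and 657 to 895, and of 5 Paneth markers (Lyz1, Mmp7, Defa17, Defa24 and Itln1) 47986 to 60899, 37561 to 45548 and 108 to 198, in the same order. In the budding conditions the enterocyte sum ran from 38376 to 209150.5, the goblet sum from 51538 to 295179 and the Paneth sum from 22620 to 59667. Mmp7 made up nearly all of the Paneth sum in SOX9-mEGFP_spheroid. The 4 enteroendocrine markers (Chga, Chgb, Neurod1 and Neurog3) summed to 10915 to 31002, 23.8 to 97.6 and 6.62 to 12.6, and the 3 tuft markers (Dclk1, Trpm5 and Pou2f3) to 99.3 to 179, 65.7 to 83.1 and 45.4 to 68.7. Stem cell markers (Lgr5, Olfm4, Ascl2, Smoc2 and Axin2) summed to 6079 to 16556, 2989 to 4899 and 3277 to 4985. Smoc2 (means of 6140, 127 and 345 normalized counts) and Olfm4 (1710, 82.4 and 6.06) made up most of that fall, while Lgr5 had means of 387, 1538 and 323 and was called higher in SOX9-mEGFP_spheroid, and Axin2 had 1642, 1826 and 3435. The part of these shifts in the falls of Efnb1, Efnb2, Efna1 and Epha1 was not tested, and in RNA from whole organoids fewer cells of a type and less RNA per cell cannot be told apart.

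Ephb4 and Efnb2 are also known from blood vessels, so markers of other tissues were checked. Of 6 endothelial genes the sum rose from 186 to 410 in Halo-NLS to 1805 to 2191 in SOX9-mEGFP_spheroid and 1463 to 1945 in SOX9-Halo_spheroid, and Esam accounted for nearly all of it. The remaining endothelial genes, Pecam1, Cdh5, Kdr, Tek and Emcn, had means between 2.51 and 19.2 in Halo-NLS. In both spheroid conditions their means lay between 0 and 2.15. The 6 fibroblast genes summed to 40.5 to 104, 10.6 to 15.2 and 17.0 to 49.7, the 5 immune genes to 21.8 to 116, 76.3 to 182 and 3.55 to 14.4, and the 5 genes of neurons and glia to 137 to 300, 412 to 1266 and 99.9 to 127, in the same order. In SOX9-mEGFP_spheroid the last sum was mostly S100b (mean 815, against 40.4 in Halo-NLS) and the immune sum mostly Csf1r (107 against 21.3). Beside them, Ephb4 had 4113 to 8523 normalized counts in Halo-NLS and 2542 to 3987 in the spheroids. The cell type its reads came from was not tested.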

How the data were processed

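Poly-A RNA-seq of 15 libraries (150-base paired reads, a kit that does not mark strand) was deposited as counts per gene and library. Per the methods, the authors trimmed reads with cutadapt 4.5, aligned them to mm39 (GRCm39) with STAR keeping unique alignments, and counted them on Ensembl genes with HTSeq 2.0.2 in union mode without strand. The deposited counts were not normalized. Reads on several genes (9.65% to 13.6% per library) and on no gene (1.83% to 6.09%) stayed out of library sizes and tests. The authors' table of normalized values and their 7 comparison tables, which hold fold changes and p-values, were not used, and 0 columns of values per library were left unassigned.

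Counts were filtered with filterByExpr by condition, scaled with TMM and fitted with edgeR 4.0.16 (limma 3.58.1, R 4.3.3), with 1 coefficient per condition over all 15 libraries. Of 17560 genes tested, 15718 had a mean of at least 10. Quasi-likelihood tests were two-sided, p-values were adjusted after Benjamini-Hochberg over all genes tested, and a standard error is the size of the log2 fold change over the root of its F statistic. The call limits (adjusted p of at most 0.01, log2 change of at least 1, mean of at least 10) follow the study, whose own tool, DESeq2, was run as an alternative (1.42.0). The script for the fit was tested on simulated data. TPM were computed here, without TMM factors, from the counts and the summed exon lengths of GENCODE M39, which holds 78168 of the 78298 genes. Summaries used Python 3.11.15 with pandas 2.3.3, numpy 2.4.6 and matplotlib 3.10.9. Promoters are from RefSeq on GRCm38.p6, whose coordinates were not converted.

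Libraries were grouped by their labels. Same-numbered libraries of SOX9-Halo_budding and SOX9-Halo_spheroid deviated together (r = 0.403, 0.234 and 0.344 over 11054 genes, against -0.17 on average for unlike numbers), and the numbers were taken to pair them on this ground only. In the other comparisons they were not taken to pair, although some same-numbered libraries there correlated more strongly. For SOX9-Halo_budding and Halo-NLS, r was 0.47, 0.817 and -0.0545, and for the 2 budding conditions 0.0402, 0.358 and 0.74. What a replicate number marks across conditions is not stated in the labels. The members and lists were chosen with earlier results of these data known. All 10 members were described, with the further family genes that were called. Of the partners, the 3 most abundant and the 3 with the largest called change in each spheroid condition against Halo-NLS were named. Of the Wnt-responsive genes, only counts and medians are given. For 5 members the 3 most similar genes were named. A further enterocyte marker of the list is not reported here, and the sum leaves it out. Alternatives were DESeq2, RLE factors, library sizes alone, no filter, an adjusted p of at most 0.05, fits of only the libraries compared, a replicate block, each library left out, and TPM on the longest transcript.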

Additional observations from a re-analysis of the deposited data

Results flagged for a closer look

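For 2 of the genes described, the 2 SOX9 lines differed in how much they changed with morphology, by a direct test of that difference (edgeR's quasi-likelihood test, Benjamini-Hochberg over all genes). For Efnb1 the SOX9-Halo line minus the SOX9-mEGFP line gave -1.77 on the log2 scale (adjusted p = 0.0039). For Vav3 it gave -4.06 (adjusted p = 6.3e-05). The Efnb1 call was lost without SOX9-Halo_spheroid replicate 2 or 3 or without SOX9-mEGFP_budding replicate 3. The 2 spheroid conditions also differed in stage and histone marker, so line, stage and second transgene cannot be told apart here.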

How the results depend on the processing

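Of 246 counts of called members over the alternatives, 210 were within 1.5 times the value reported. In SOX9-mEGFP_spheroid against Halo-NLS the members called lower went from 2 to 1 with library sizes alone and in the fit of only the libraries compared, and ran from 1 to 3 when 1 library was left out. In SOX9-Halo_budding against Halo-NLS those called lower went from 0 to 1 with DESeq2, an adjusted p of at most 0.05, no filter and the replicate block (0 to 1 with 1 library left out). In SOX9-mEGFP_budding against Halo-NLS the 1 called higher became 0 in the fit of only the libraries compared (0 to 1 with 1 library left out), and the lower count became 1 with DESeq2 and at 0.05 (0 to 1). Within the SOX9-Halo line 3 or 4 were higher and 2 or 3 lower, and within the SOX9-mEGFP line 0 or 1 lower, with 1 library left out. Between the spheroids the count higher became 1 with DESeq2 and the replicate block and 2 at 0.05, without the filter and in the fit of only the libraries compared. For the line difference it became 1 with DESeq2, at 0.05, without the filter and with the replicate block. The count lower there became 2 with these 4, with library sizes alone and in the fit of only the libraries compared, and ran from 0 to 1 with 1 library left out. The causes were not tested. The replicate block, set over all 15 libraries, changed the call of Efna1 within the SOX9-Halo line, given above, and of no other member there. Pairing was found in that line, but no paired fit of it alone was run.

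Of 1098 log2 fold changes of members, 1022 kept direction and side of the threshold, 40 gained and 16 lost a call, and 20 changed sign. The sign changes were Ephb2 within the SOX9-mEGFP line (-0.0043 with DESeq2, -0.0084 with RLE factors, -0.012 in the fit of only the libraries compared, -0.20 to 0.12 with 1 library left out), Ephb2 within the SOX9-Halo line (-0.25 to 0.11), Ephb3 within the SOX9-mEGFP line (-0.62 to 0.055) and Efnb2 in SOX9-mEGFP_spheroid against Halo-NLS (-0.10 to 0.54). For the line difference they were Ephb2 (-0.26 to 0.10), Epha1 (-0.068 to 0.52) and Epha4 (-0.016 to 0.82). For Efna5 the fitted values against Halo-NLS ran from -2.71 to 4.17 in SOX9-Halo_budding and from -2.11 to 4.78 in SOX9-mEGFP_budding, positive without Halo-NLS replicate 3, where 0 to 4 reads per library give no fold. None of these was called. Library sizes alone moved the median of all genes against Halo-NLS to between 0.27 and 0.31 on the log2 scale, and the split of all called genes in SOX9-Halo_spheroid from 2392 higher and 2682 lower to 3102 and 2229. Of 200 TPM shares 187 moved by less than 1 SD, and on the longest transcript the share of Efna1 in SOX9-Halo_spheroid was 35.5% in place of 26.9%. Depth limits Efna5 and Ephb6 outside the spheroids.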
